A study of Mus musculus with 13 samples.

Results

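Fbxo15, Tcl1, Eras and L1td1 are transcripts known from mouse embryonic stem cells (ESC), and their signal is described here on 13 Affymetrix Mouse430_2 arrays of ESC and of cells from day 7 embryoid bodies. The members are the probe sets that the platform annotation assigns to exactly 1 of these 4 symbols, control probe sets aside. There were 4 such probe sets, 1 per gene, among 45037 probe sets: 1427238_at for Fbxo15, 1422458_at for Tcl1, 1456511_x_at for Eras and 1457314_at for L1td1. The 4 genes are 4 of 18193 that have a probe set with 1 symbol. All 4 passed the filter on dim probe sets, and each was above its own array's median on 13 of 13 arrays. The name of the Eras probe set ends in x_at, which marks probes that other transcripts can share, so its signal is less certain to be that of Eras alone.

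Every group derives from mouse ESC that carry a green fluorescent reporter of Stella, the protein made by Dppa3, and an embryoid body is an aggregate in which such cells differentiate. The 5 groups were Stella-negative ESC (3 arrays), Stella-positive ESC (2), unsorted ESC (2), Stella-negative cells of day 7 embryoid bodies (2) and Stella-positive cells of day 7 embryoid bodies (4). The submitters label the positive day 7 cells as primordial germ cells made in vitro and the negative ones as not germ cells. The reporter construct, the strain, the culture medium and any feeder cells are not given in the labels. The description file of Stella-positive ESC array 2 alone names a bacterial artificial chromosome (BAC) reporter. The labels do not say whether replicates are separate cultures or technical repeats, and p-values measure only how these arrays vary.

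The products of these genes work at different points of the cell. Fbxo15 encodes an F-box protein, the part of a ubiquitin ligase that picks its substrates, and in mouse ESC the gene is a known target of Oct4 (encoded by Pou5f1) and Sox2 that has served as a reporter of reprogramming. L1td1 encodes an RNA-binding protein derived from the first open reading frame of a LINE-1 retrotransposon. Eras encodes a Ras-like protein of ESC that signals through phosphatidylinositol 3-kinase (PI3-kinase), and Tcl1 encodes a cofactor that binds the kinase Akt downstream of it.

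The sequences just before the start sites of Tcl1, Eras and L1td1 are shown as a description of these genes. They are the 3 of the 4 members that matched the RefSeq promoter table, and no sequence is shown for Fbxo15. They are the 250 bases before the start in RefSeq GRCm38.p6, at chr12:105222738-105222987 on the minus strand for Tcl1, chrX:7928608-7928857 on the minus strand for Eras and chr4:98726504-98726753 on the plus strand for L1td1. Capitals mark matches to the letters GGGCGG (a GC box) or ACAATG (a SOX core) on either strand, and no 2 matches overlap.
Tcl1: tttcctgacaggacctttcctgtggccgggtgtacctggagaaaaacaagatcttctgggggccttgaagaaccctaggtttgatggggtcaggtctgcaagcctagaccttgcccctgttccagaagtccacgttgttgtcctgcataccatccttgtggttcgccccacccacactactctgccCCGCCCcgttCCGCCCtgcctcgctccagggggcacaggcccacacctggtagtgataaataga
Eras: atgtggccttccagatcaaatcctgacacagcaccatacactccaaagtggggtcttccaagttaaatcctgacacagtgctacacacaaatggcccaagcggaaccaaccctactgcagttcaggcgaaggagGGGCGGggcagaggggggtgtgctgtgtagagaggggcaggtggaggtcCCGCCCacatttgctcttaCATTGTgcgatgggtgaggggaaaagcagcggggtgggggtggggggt
L1td1: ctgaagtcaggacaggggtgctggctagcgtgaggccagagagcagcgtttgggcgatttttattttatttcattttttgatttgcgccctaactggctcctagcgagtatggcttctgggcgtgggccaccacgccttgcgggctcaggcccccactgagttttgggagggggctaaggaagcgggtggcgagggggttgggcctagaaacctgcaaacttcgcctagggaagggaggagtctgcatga

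The GC box had 2 matches in the Tcl1 window, at 64 and 54 bases before the start, 2 in the Eras window, at 116 and 67 bases, and 0 in the L1td1 window. Of 32851 such windows in the table, 32.7% held at least 1. The SOX core had 1 match, 48 bases before the start of Eras, against 10.7% of all windows with a match. The octamer ATGCAAAT (1.6% of all windows), the TATA box TATAAA (12.4%) and the E-box CACGTG (6.02%) had 0 matches in the 3 windows on either strand. The GC content was 57.6% for Tcl1, 58.0% for Eras and 57.6% for L1td1, against a median of 52.4%. These are matches of letters, and binding was not measured.

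Signals below are linear Affymetrix MAS5 values, scaled so that every array has the same trimmed mean of 105.1. Differences are on a log2 scale after a constant of 10.5 was added. They carry limma standard errors (SE), and a difference was called at an adjusted p under 0.05 over 30023 probe sets. Before scaling, the trimmed means ranged between 8.48 (array 4 of the positive day 7 cells) and 229.9 (array 2 of the negative ESC). The 3'/5' signal ratio of the Gapdh control probe sets, which is high where labelled RNA is short, was 3.03 to 3.18 in negative day 7 cells, 1.23 to 2.09 in positive ones and 0.803 to 0.869 in ESC. Day 7 arrays shared 1 chip lot and 1 hybridisation day that no ESC array had, so culture cannot be told apart from hybridisation day. The Gapdh ranges of negative day 7, positive day 7 and ESC arrays did not overlap. Neither the day 7 sort nor culture can therefore be told apart from RNA quality, also in fits with the Gapdh ratio as a covariate. Positive ESC array 2 had a hybridisation run, day and chip lot of its own. Positive ESC array 1 shared those of the negative ESC arrays. The 8 ES cell markers summed to between 16161 and 25014 on the ESC arrays, and 8 of 8 were above the array median on each of them. Such linear sums weigh the brightest markers of a list most. The 9 measured germ cell markers summed to 2898 to 3313 in positive day 7 cells, 985 to 995 in negative day 7 cells and 1126 to 2356 in ESC. These sums include Dppa3, whose reporter the cells were sorted on, so part of their difference between sorted groups was set by the sort. Dppa3 alone was 728.5 to 1138 in positive and 74.6 to 101.4 in negative day 7 cells. In ESC it was 941.2 to 1473 in positive and 139.3 to 244.5 in negative cells.

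**Figure D1:**
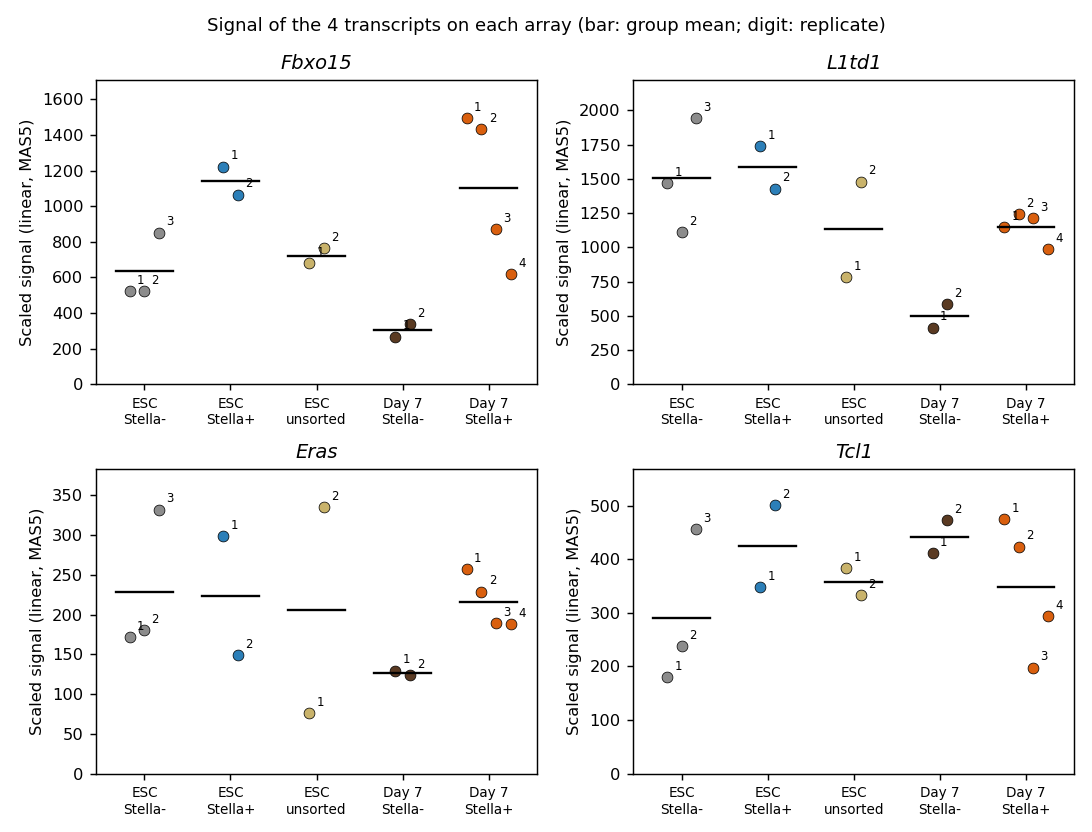
Scaled linear MAS5 signal (y axes, each from 0) of Fbxo15, L1td1, Eras and Tcl1 on each of the 13 arrays, by group (x axes). Points are arrays with their replicate number and bars are group means. Fbxo15 and L1td1 lie lowest in Stella-negative day 7 cells, while Tcl1 there lies at 411.3 and 472.5, inside the range of the other groups.

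Fbxo15 was higher in Stella-positive than in Stella-negative cells at day 7 and lower in Stella-negative day 7 cells than in Stella-negative ESC. Its signal at day 7 was 1493, 1432, 869.2 and 620.0 on the 4 positive arrays and 268.6 and 338.0 on the negative arrays. In ESC it was 1222 and 1065 on the positive arrays, 524.4, 525.1 and 852.2 on the negative arrays, and 682.4 and 763.4 on the unsorted ones. Positive arrays lay above negative arrays in both sorts without overlap, and positive day 7 arrays 1 and 2 were the highest of all 13. With so few arrays per group, such a gap can readily arise without a difference. The share of all genes without overlap was not counted, here or in the comparisons below.

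The day 7 sort difference of Fbxo15 was 1.75 ± 0.30 (SE) on the log2 scale, or 3.36-fold (n = 4 and 2, limma adjusted p = 0.00111). In this comparison 10.2% of all 14007 genes tested were called higher and 9.07% lower. Within the only run that held both day 7 groups, with negative array 2 and positive arrays 1 to 3, the difference was 1.83 (limma adjusted p = 0.0129). That value sets a lone negative array against 3 positive ones and assumes that it varies like the arrays of the other groups, so it adds little beyond its size. The difference was 2.24 without positive arrays 3 and 4. Once limma held the Gapdh ratio as a covariate it was 0.20 (adjusted p = 0.800), so the call was lost. That ratio itself separated the 2 day 7 groups, so this value does not tell the sort from RNA quality. In ESC the sort difference was 0.88 ± 0.31 and was not called (n = 2 and 3, limma adjusted p = 0.9999, unadjusted p = 0.0127). Within the run of the negative ESC arrays, which held positive ESC array 1 alone, it was 0.97. The difference between the day 7 and ESC sorts was 0.87 ± 0.43 and not called (limma adjusted p = 0.386), but was called without positive day 7 arrays 3 and 4 (1.36, limma adjusted p = 0.0461) and turned to -0.74 with the Gapdh covariate. In the ESC sort 0.00714% of genes, which is 1 gene, were called higher and 0% lower, with 834 of the 30023 probe sets at an unadjusted limma p under 0.05.

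The 4 positive day 7 arrays were not alike for Fbxo15, with a 2.41-fold span between the highest and the lowest. Arrays 1 and 2, where Fbxo15 was highest, had Gapdh ratios of 1.32 and 1.23 and summed signals of the 8 endoderm markers of 8275 and 8383. Arrays 3 and 4, where it was lower, had Gapdh ratios of 1.65 and 2.09 and endoderm sums of 449.9 and 477.8. The deposited trimmed means were 82.9 and 71.7 on arrays 1 and 2 and 29.0 and 8.48 on arrays 3 and 4. Fbxo15 was thus high on the positive arrays with more endoderm marker signal, lower Gapdh ratios and brighter deposited values. Endoderm sums were higher still in negative day 7 cells (22083 and 23874), where Fbxo15 was lowest. The part of each of these features in the Fbxo15 values was not tested.

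Between Stella-negative day 7 cells and Stella-negative ESC, Fbxo15 fell by 1.01 ± 0.31 on the log2 scale (n = 2 and 3, limma adjusted p = 0.0210), without overlap of the arrays. There 16.0% of genes were called lower and 18.9% higher. This call was lost without negative ESC array 3 (-0.78, limma adjusted p = 0.0895), without negative day 7 array 1 (-0.85, 0.160) and without negative day 7 array 2 (-1.17, 0.0562), and the sign turned with the Gapdh covariate (1.88, adjusted p = 0.155). Day 7 and ESC positive cells differed in Fbxo15 by -0.14 ± 0.30 (n = 4 and 2, limma adjusted p = 0.793), with a 95% interval from -0.77 to 0.49. It turned to 0.36 without positive day 7 arrays 3 and 4 and to 1.15 with the Gapdh covariate (adjusted p = 0.128).

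L1td1, the LINE-1-derived gene, was likewise higher in positive than in negative cells at day 7 and lower in negative day 7 cells than in negative ESC. Its day 7 signal was 1147, 1244, 1216 and 988.3 on the positive arrays and 414.8 and 585.8 on the negative arrays. In ESC it was 1738 and 1428 on the positive, 1469.65, 1110.2 and 1944 on the negative and 782.8 and 1479 on the unsorted arrays. The negative day 7 arrays were the lowest of all 13. The positive day 7 arrays lay close together, with a 1.26-fold span that Fbxo15 did not share.

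The day 7 sort difference of L1td1 was 1.20 ± 0.25, or 2.29-fold (n = 4 and 2, limma adjusted p = 0.00461). It was no longer called with the Gapdh covariate (0.94, limma adjusted p = 0.241), within the shared run (1.02, adjusted p = 0.0919) or without negative day 7 array 1 (0.95, adjusted p = 0.115). The last 2 values rest on a lone negative array, whose spread is taken from the other groups. In ESC the sort difference was 0.10 ± 0.27 (n = 2 and 3, limma adjusted p = 0.9999), with a 95% interval from -0.46 to 0.66 and overlapping arrays. The difference between the day 7 and the ESC sort, tested as an interaction, was 1.10 ± 0.37 and was not called (limma adjusted p = 0.176). Of all genes, 0.600% were called higher and 0.207% lower in that test.

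Between negative day 7 cells and negative ESC, L1td1 fell by 1.56 ± 0.27, a 2.94-fold lower signal (n = 2 and 3, limma adjusted p = 3.80e-04). This call was lost only with the Gapdh covariate (-1.07, adjusted p = 0.488) among its 12 alternatives. Positive day 7 cells minus positive ESC gave -0.46 ± 0.25 for L1td1 (n = 4 and 2, limma adjusted p = 0.234). The arrays of the positive fractions did not overlap, and the difference was called under scaling to a common median (-1.05, limma adjusted p = 0.0461). In that comparison 9.02% of genes were called higher and 6.80% lower. Under median scaling the median of all genes there moved from 0.13 to -0.38, so that L1td1 lay 0.59 below it with the common trimmed mean and 0.67 below it with the common median.

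Eras, the Ras-like gene, had its signal at day 7 at 256.8, 228.8, 188.8 and 187.7 on the positive arrays and at 129.5 and 124.2 on the negative arrays. The 2 groups did not overlap, but the difference of 0.71 ± 0.41 was not called (n = 4 and 2, limma adjusted p = 0.257), and it was 0.23 with the Gapdh covariate (adjusted p = 0.885). In ESC the signal was 298.4 and 149.2 on the positive, 171.9, 180.1 and 331.9 on the negative and 76.1 and 335.0 on the unsorted arrays. The unsorted pair held both the lowest and the highest Eras signal of all 13 arrays.

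The ESC sort difference of Eras was -0.04 ± 0.44 (n = 2 and 3, limma adjusted p = 0.9999), with a 95% interval from -0.96 to 0.88, and its sign changed in 6 of 13 alternatives. The difference between the sorts was 0.75 ± 0.60 (limma adjusted p = 0.626). Between negative day 7 cells and negative ESC it was -0.73 ± 0.44 (n = 2 and 3, limma adjusted p = 0.202), without overlap of the arrays. There the call was made under scaling to a common median (-1.47, adjusted p = 0.0360) and the sign turned with the Gapdh covariate (0.16). In that comparison the median of all genes moved from 0.18 to -0.49 under median scaling. For the positive fractions Eras differed by 0.01 ± 0.41 (limma adjusted p = 0.986), with a 95% interval from -0.86 to 0.89.

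Tcl1, the Akt cofactor gene, had no called difference in the day 7 sort. Its signal was 475.3, 423.8, 197.8 and 294.5 on the positive day 7 arrays and 411.3 and 472.5 on the negative ones. In ESC it was 348.1 and 500.5 on the positive, 180.0, 237.4 and 456.2 on the negative and 383.7 and 332.4 on the unsorted arrays. The groups overlapped in both sorts, and positive day 7 arrays 3 and 4 were lower than arrays 1 and 2, as for Fbxo15.

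The day 7 sort difference of Tcl1 was -0.41 ± 0.34 (n = 4 and 2, limma adjusted p = 0.436), with a 95% interval from -1.12 to 0.31. It was 0.03 without positive arrays 3 and 4, -1.17 with the Gapdh covariate (adjusted p = 0.267) and -0.58 to -0.17 with 1 array left out. In the ESC sort it was 0.61 ± 0.36 (n = 2 and 3, limma adjusted p = 0.9999). The difference between the sorts was -1.02 ± 0.49 (limma adjusted p = 0.373), and -1.81 with the Gapdh covariate. Between negative day 7 cells and negative ESC it was 0.69 ± 0.36 (n = 2 and 3, limma adjusted p = 0.145). It was called without negative ESC array 3 (1.05, limma adjusted p = 0.0305), was -0.08 under scaling to a common median and was 2.11 with the Gapdh covariate (adjusted p = 0.282). For the positive fractions it was -0.33 ± 0.34 (limma adjusted p = 0.539), and 0.30 with the Gapdh covariate.

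**Figure D2:**
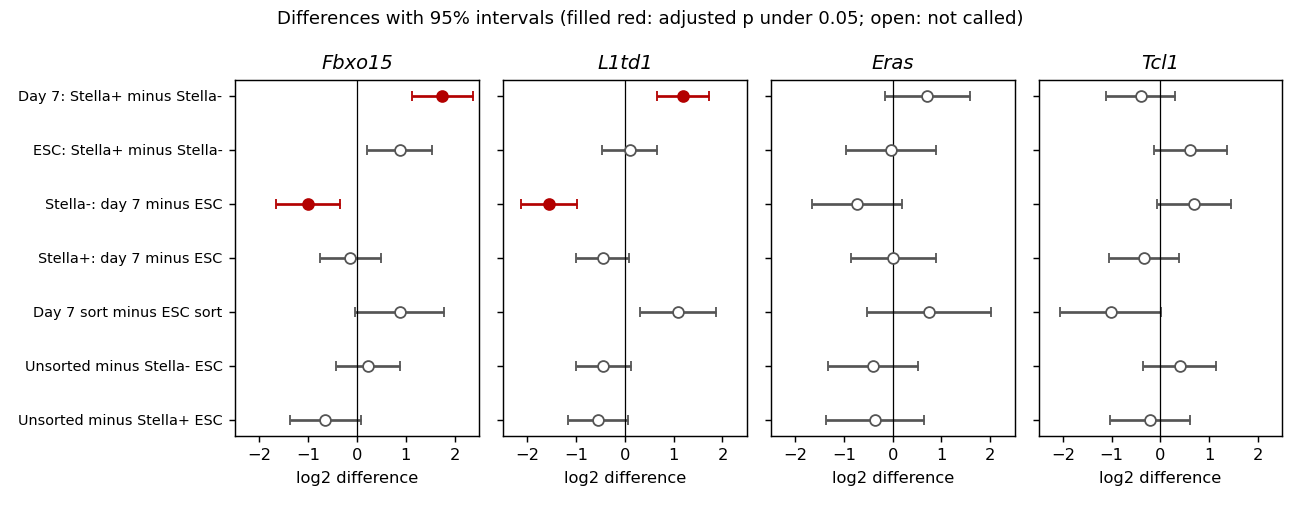
Log2 differences (x axes) of the 4 genes in 7 comparisons (y axis), with 95% intervals from limma as bars and filled red points where the adjusted p was under 0.05. Fbxo15 and L1td1 each have 2 red points, the day 7 sort and negative day 7 cells against negative ESC, while Eras and Tcl1 have none.

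In negative ESC, array 3 was the highest of its group for all 4 genes, at 852.2 for Fbxo15, 456.2 for Tcl1, 331.9 for Eras and 1944 for L1td1. Its summed ES cell markers were also the highest of that group, at 23897 against 17975 and 16161. Its Gapdh ratio was 0.869 against 0.803 and 0.822. What sets this array apart was not tested.

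Unsorted ESC did not differ from either sorted ESC fraction in a called way for any of the 4 genes. Against negative ESC the differences were 0.22 ± 0.31 for Fbxo15, 0.39 ± 0.36 for Tcl1, -0.40 ± 0.44 for Eras and -0.45 ± 0.27 for L1td1. In this comparison 1.19% of genes were called higher and 1% lower. Against positive ESC the differences were -0.65 ± 0.34 for Fbxo15, -0.22 ± 0.39 for Tcl1, -0.36 ± 0.48 for Eras and -0.55 ± 0.29 for L1td1, with 2.23% of genes called higher and 1.77% lower. Of the 4 genes only Fbxo15 had no overlap between unsorted and positive ESC. With 2 arrays against 2 such a gap can readily arise without a difference, and its share over all genes was not counted.

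On unsorted array 1 Eras (76.1) and L1td1 (782.8) were low, while Fbxo15 (682.4) and Tcl1 (383.7) lay near their values on array 2. The 8 ES cell markers summed to 22834 there and 25014 on array 2. The summed signal of the 8 fibroblast and feeder markers was 4963 on array 1, against 1482 on array 2 and 208.8 to 843.6 in sorted ESC. Without unsorted array 1 the Eras difference from negative ESC turned to 0.60 and that of L1td1 to 0.0091. The unsorted arrays were hybridised in a run and chip lot of their own, and the part of these features in the values was not tested.

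**Figure D3:**
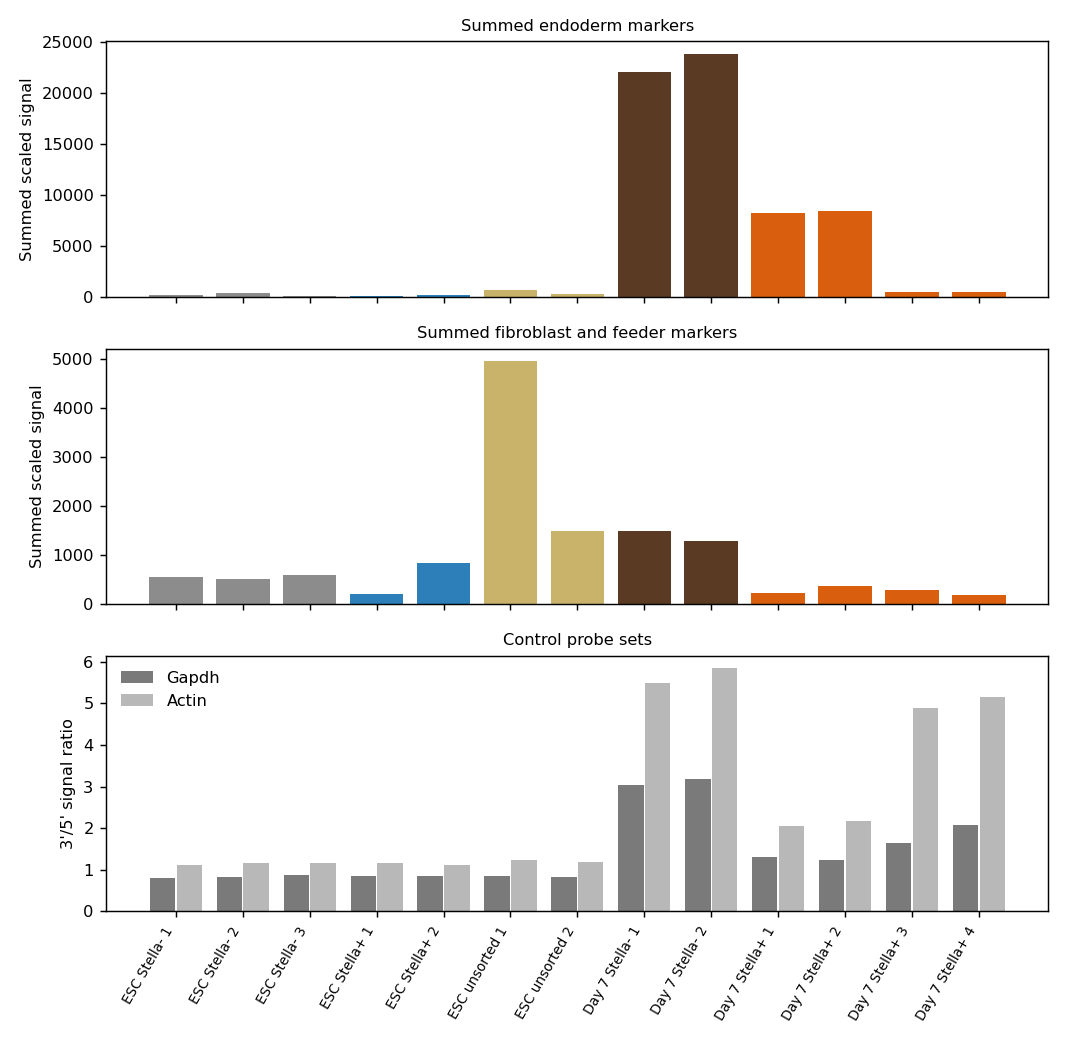
Summed scaled signal of 8 endoderm markers (top), of 8 fibroblast and feeder markers (middle) and the 3'/5' signal ratios of the Gapdh and actin control probe sets (bottom) on each array. Endoderm markers sum to 22083 and 23874 in negative day 7 cells, 8275 and 8383 on positive day 7 arrays 1 and 2, and at most 629.1 elsewhere.

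Groups were ordered by mean log2 signal, as a description without a test. Fbxo15 ran from positive ESC through positive day 7, unsorted ESC and negative ESC to negative day 7 cells, and of neighbours in that order only negative ESC and negative day 7 cells did not overlap. L1td1 ran from positive ESC through negative ESC, positive day 7 and unsorted ESC to negative day 7 cells, and only the last step had no overlap. Eras ran from negative ESC through positive day 7, positive ESC and unsorted ESC to negative day 7 cells, with overlap at every step. For Tcl1 negative day 7 cells came first and negative ESC last, again with overlap at every step.

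Ratios between the genes within an array do not depend on the scaling of that array, save for the added constant. Only the change of such a ratio between groups can be read, since probe sets differ in brightness. In the day 7 sort the log2 ratio of Fbxo15 over Tcl1 was 1.05 to 2.08 on positive and -0.60 to -0.47 on negative arrays, a difference of 2.16. The ratio of Tcl1 over L1td1 was -2.56 to -1.25 on positive and -0.30 to -0.01 on negative arrays. Fbxo15 over Eras and Tcl1 over Eras also had no overlap, with differences of 1.04 and -1.12, while Fbxo15 over L1td1 and Eras over L1td1 overlapped. With 4 against 2 arrays a two-sided exact permutation test cannot go below p = 0.133, so these ratios are given as values and whether the genes changed unequally was not tested.

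The genes with the profile most like each member were taken by the root mean square (RMS) difference of centred log2 values over the 13 arrays, which share the groups, runs and RNA quality described above. For Fbxo15 they were Pdhb (0.29), which encodes a pyruvate dehydrogenase subunit, Dppa4 (0.29), known from ESC, and Mageb16 (0.32), against an RMS spread of Fbxo15 itself of 0.71. For L1td1 they were the replication licensing gene Mcm4 (0.14), Ptcd3 (0.20) and the histone chaperone gene Nasp (0.20), against a spread of 0.60. Eras was nearest to the RNA helicase gene Ddx21 (0.28), the mitochondrial ribosome gene Mrps9 (0.29) and the exonuclease gene Exo1 (0.32), against a spread of 0.56. Tcl1 was nearest to the splicing factor gene Sf3b4 (0.27), Clasrp (0.31) and Tsc22d1 (0.31), against a spread of 0.46. The fit was thus closest for L1td1 and loosest, for its spread, for Tcl1.

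Another 20 transcripts give the setting for the members. They were first described as enriched in ESC, or screened with Fbxo15, Tcl1 and Eras as reprogramming factors. For short, both kinds are called other ES cell transcripts. The median of the 20 in the day 7 sort was 0.71 against -0.09 over all genes. There 9 of 20 were called higher and 0 lower, beside 10.2% and 9.07% of all genes. They were led by Dnmt3l, a cofactor of DNA methyltransferases, at 2.13 ± 0.28, the Tudor-domain gene Tdrd12 at 1.90 ± 0.24, Pou5f1, which encodes Oct4, at 1.72 ± 0.18, and Dppa4 at 1.56 ± 0.22. Of the 20, 2 lay above Fbxo15, 5 above L1td1, 10 above Eras and 19 above Tcl1. Within the shared run, with its lone negative array, 4 of the 20 were called higher, with the Gapdh covariate 4, and without positive day 7 arrays 3 and 4 the count was 11.

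In the ESC sort 0 of the 20 were called by limma (3 had an unadjusted p under 0.05), with a median of 0.20 against -0.04 over all genes. Between negative day 7 cells and negative ESC, 12 of 20 were lower and 1 higher, beside 16.0% and 18.9% of all genes. The median was -0.95 against 0.18. The lower ones were led by Pou5f1 at -2.60 ± 0.19, Dnmt3l at -2.59 ± 0.30, the TGF-beta family ligand gene Gdf3 at -2.19 ± 0.29 and Myc at -1.93 ± 0.38, and the higher one was Ctnnb1, which encodes beta-catenin, at 0.88 ± 0.17. With the Gapdh covariate 1 of the 20 was called lower. Between the positive fractions the median was -0.38 against 0.13. There 7 were lower and 2 higher, beside 6.80% and 9.02% of all genes. Those were led by Stat3, a transducer of LIF signals, at -1.72 ± 0.23, Khdc3 at -1.52 ± 0.38, Utf1 at -1.40 ± 0.26 and Klf4 at -1.20 ± 0.25, and by Dppa5a at 0.90 ± 0.19 and Ctnnb1 at 0.74 ± 0.16. In the interaction test 2 of the 20, Dnmt3l (1.95 ± 0.41) and Pou5f1 (1.51 ± 0.27), were called higher and 0 lower. Of all genes, 0.600% were higher and 0.207% lower there. Against negative ESC, unsorted ESC had Pou5f1 lower (-1.03), and against positive ESC they had Utf1 (-1.35), Pou5f1 (-1.24) and Tdrd12 (-1.05) lower.

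**Figure D4:**
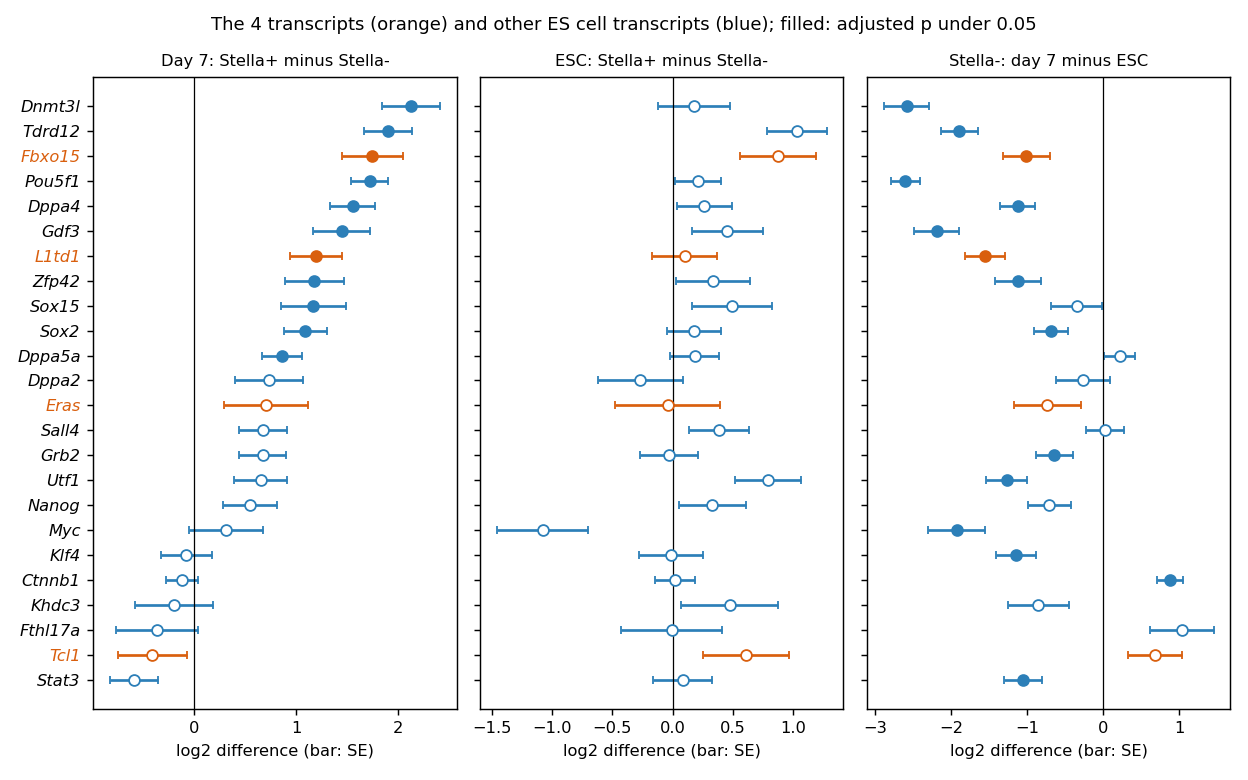
Log2 differences with limma SE (bars) of the 4 members (orange) and 20 other ES cell transcripts (blue) in the day 7 sort (left), the ESC sort (middle) and negative day 7 cells against negative ESC (right), with each panel on its own x scale. Filled points had an adjusted p under 0.05; Tcl1 lies near the lower end in the left panel at -0.41 and to the right of 0 in the right panel at 0.69.

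Eras and Tcl1 act in the PI3-kinase and Akt pathway, of which 18 of 20 listed genes had a probe set with 1 symbol. Of the 18, 2 were higher and 4 lower in the day 7 sort, beside 10.2% and 9.07% of all genes, and the median was 0.06 against -0.09. The count of higher ones was thus near the background. The higher ones were Foxo3, a transcription factor that Akt inhibits, at 1.23 ± 0.20 and the mTOR activator gene Rheb at 0.52 ± 0.16. The lower ones were the catalytic subunit gene Pik3cd at -2.25 ± 0.37, the regulatory subunit gene Pik3r1 at -1.03 ± 0.26, the catalytic subunit gene Pik3ca at -0.96 ± 0.23 and the kinase gene Gsk3b at -0.64 ± 0.20. Pik3cd is known mainly from white blood cells. At day 7 the 8 blood markers summed to 4262 and 4420 on the negative arrays and 194.6 to 432.7 on the positive ones, and their part in the Pik3cd difference was not tested.

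Between negative day 7 cells and negative ESC, 4 of the 18 were higher, namely Pik3cd (2.94 ± 0.39), Tsc1 (1.31 ± 0.25), Pik3r1 (1.10 ± 0.27) and Pik3ca (1.09 ± 0.25). The lower ones were Tsc2 (-1.61 ± 0.25), which encodes the partner of the Tsc1 protein, and the Akt genes Akt2 (-0.998 ± 0.23) and Akt1 (-0.91 ± 0.32). The median was 0.09 against 0.18. With 18.9% of all genes higher and 16.0% lower in this comparison, both counts were near the background. Between the positive fractions, where 9.02% of all genes were higher and 6.80% lower, 4 were higher, namely Pdpk1 (1.13 ± 0.27), which encodes a kinase that activates Akt, Tsc1 (0.94 ± 0.24), Foxo3 (0.93 ± 0.20) and Rheb (0.84 ± 0.16), and Tsc2 (-0.92 ± 0.24) and Akt2 (-0.78 ± 0.22) were lower, with a median of 0.15 against 0.13. In the ESC sort limma called 0 of 18 (0 had an unadjusted p under 0.05), with a median near 0. In the interaction test Pik3cd was called at -2.41, and unsorted ESC had it higher than negative ESC (2.21) and positive ESC (2.06) and Gsk3b lower than negative ESC (-0.97).

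Of 15 relatives and partners of the members, 11 had a probe set with 1 symbol and 10 were tested. In the day 7 sort 1 of 10 was higher and 0 were lower, beside 10.2% and 9.07% of all genes. The higher one was Skp1, the adaptor to which F-box proteins such as Fbxo15 bind, at 0.81 ± 0.21. The median was -0.04 against -0.09. Between negative day 7 cells and negative ESC, Skp1 (-1.12 ± 0.23) and the Ras relative Rras2 (-1.47 ± 0.26) were lower. There Tcl1b3 (1.83 ± 0.51), Tcl1b1 (1.53 ± 0.47) and the Ras gene Nras (0.83 ± 0.28) were higher, and the median was 0.25 against 0.18. Of the 10, 3 were thus higher and 2 lower, beside 18.9% and 16.0% of all genes. Between the positive fractions Tcl1b3 was higher (1.88 ± 0.48) and Rras2 lower (-1.45 ± 0.24), with a median of 0.07 against 0.13. That was 1 higher and 1 lower of 10, beside 9.02% and 6.80% of all genes. With only 10 genes, the counts in these comparisons were near the background. In the ESC sort limma called 0 of 10 (0 had an unadjusted p under 0.05), with a median of 0.01.

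Tcl1b3 and Tcl1b1 belong to the Tcl1b family, whose genes Tcl1b2, Tcl1b1, Tcl1b5, Tcl1b3 and Tcl1b4 lie in a row directly beside Tcl1 in the GRCm38.p6 gene table. In the day 7 sort Tcl1b1 was at -0.07 ± 0.45 and Tcl1b3 at -0.39 ± 0.48, neither called, beside -0.41 ± 0.34 for Tcl1. The Tcl1b genes are close copies of each other, so probes may not tell them apart.

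Negative day 7 cells, the group in which Fbxo15 and L1td1 were lowest, differed from positive ones in other cell type markers too. Of 8 endoderm markers 8 were called lower in positive cells, of 7 tested blood markers 3 and of 7 tested fibroblast and feeder markers 4, beside 9.07% of all genes. No marker of any list was at 0 in a group. The 8 ES cell markers summed to 12648 and 13350 on the negative arrays and 24084 to 25219 on the positive ones. In these bulk samples a smaller number of cells that express a gene and less of its RNA per cell cannot be told apart.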

How the data were processed

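Total RNA of 13 samples was measured on 1 array each, per the labels. The deposited values are linear MAS5 signal intensity per probe set, per the submitters' processing notes; version and target intensity: not given in the sources. The deposited columns differed 27.1-fold in trimmed mean (2% from each end), so each was scaled to the common value of 105.1, and log2 was taken after adding 10.5. Of 45101 probe sets, 64 control ones were left out, and 30023 of the others, above the array median on at least 2 arrays, were tested. A gene was represented by its brightest probe set with 1 symbol in the supplied annotation, which gave 14007 tested genes. The 5 group means were fitted together over all arrays with limma 3.58.1 under R 4.3.3 (trended eBayes), 7 contrasts, and two-sided p-values adjusted by Benjamini-Hochberg over all tested probe sets. Named list genes are up to 4 called ones per list, direction and comparison, by size. The code was tested on simulated data. Members, lists and alternatives were chosen with earlier results of these data known. Replicate numbers follow the titles, although the arrays' description files number replicates in another order, and were not taken to pair arrays. Of 12 correlations of same-numbered deviations 0 exceeded 0.1. Pairs that the titles number in another order need not give positive correlations there, so whether arrays were paired was not tested. The number of arrays limits the precision. Promoter sequences come from RefSeq GRCm38.p6.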

Additional observations from a re-analysis of the deposited data

How the results depend on the processing

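Beside leaving out single arrays, 195 member results over the alternatives kept their direction and their side of the threshold, 18 changed sign, 4 lost and 3 gained a call; with 1 array left out 150 kept both, 13 changed sign, 4 lost and 1 gained a call. Where a value below differs from the report, the cause was not tested. The Fbxo15 day 7 sort call held in 14 of 15 alternatives and that of L1td1 in 12 of 15. Scaling to a common median moved the median of all genes in the day 7 sort from -0.09 to 0.17, between the negative fractions from 0.18 to -0.49 and between the positive ones from 0.13 to -0.38. It moved the share of calls that were higher from 52.1% to 79.9%, from 55.1% to 14.6% and from 52.9% to 9.68% in these 3, from 71.6% to 50% in the interaction, and in unsorted ESC from 54.0% to 28.7% against negative and from 55.1% to 26.3% against positive ESC. Quantile normalization moved it to 42.8% between the negative and 44.3% between the positive fractions. Depth of an array file cannot be read from MAS5 signals, and the number of arrays limits all values.

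Counts of probe sets are given as higher and lower, with the value of the model used throughout first. In the day 7 sort they were 2564 and 2362, in the ESC sort 1 and 0, between the positive fractions 2508 and 2229, between the negative fractions 5544 and 4514, in the interaction 161 and 64, and in unsorted ESC 327 and 279 against negative and 574 and 468 against positive ESC.

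With the common median, the day 7 sort had 710 lower, the positive fractions 570 and 5320, the negative fractions 1507 and 8802, the interaction 5 and 5, and unsorted ESC 71 and 176 against negative and 166 higher against positive ESC. The ESC sort of Eras turned to 0.070, its difference between the positive fractions to -0.56, Tcl1 between the negative fractions to -0.077 and Fbxo15 in unsorted against negative ESC to -0.0026. There L1td1 between the positive fractions (-1.05, limma adjusted p = 0.0461) and Eras between the negative ones (-1.47, limma adjusted p = 0.0360) were called. With quantile normalization the ESC sort of Eras was 0.0014 and of L1td1 -0.012, and the interaction had 382 and 150. The smaller constant gave 31 lower in the interaction. Without the filter the interaction had 79 and 35, and unsorted against negative ESC 212 higher.

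With the hybridisation run as a block, the day 7 sort had 1115 and 625, the ESC sort 0 higher, the interaction 5 and 2, and 4 other ES cell transcripts were higher against 9. L1td1 was at 1.02 (adjusted p = 0.0919) in the day 7 sort and Eras at 0.44 in the ESC sort. For the day 7 sort this block rests on 1 negative array and for the ESC sort on positive ESC array 1 alone. The spread of these lone arrays is taken from the other groups. The run as a block gave no value for the other 4 comparisons, whose groups share no run. With only the compared groups in the model, the day 7 sort had 1312 lower, the ESC sort 0 higher, the positive fractions 1388 and 1405, the negative fractions 8329 higher and unsorted against positive ESC 33 and 26.

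The Gapdh ratio separated the day 7 groups from each other and from ESC, so values with it as a covariate do not tell group from RNA quality. With the Gapdh covariate, the day 7 sort was 0.20 for Fbxo15, 0.94 for L1td1, 0.23 for Eras and -1.17 for Tcl1. Between the negative fractions Fbxo15 was at 1.88, Eras at 0.16, L1td1 at -1.07 and Tcl1 at 2.11, and between the positive ones Fbxo15 was at 1.15, Tcl1 at 0.30, Eras at 0.41 and L1td1 at -0.24. The interaction was -0.74 for Fbxo15, -1.81 for Tcl1 and 0.25 for Eras. The counts were 678 and 332 between the positive and 1721 and 907 between the negative fractions, 1069 and 1721 in the interaction, and in unsorted ESC 799 and 635 against negative and 1124 and 859 against positive ESC. Of other ES cell transcripts 4 were higher in the day 7 sort against 9, and 1 lower between the negative fractions against 12. Without positive day 7 arrays 3 and 4, Tcl1 was at 0.025 in the day 7 sort and 0.10 between the positive fractions, where Fbxo15 was at 0.36, the interaction of Fbxo15 was 1.36 (adjusted p = 0.0461) and its counts were 313 and 162.

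With the replicate number of the titles as a block, the ESC sort of Eras was 0.049 with 2 probe sets lower, Fbxo15 between the positive fractions was 0.12 and Eras -0.016, the interaction had 72 and 29, and unsorted ESC had 744 and 653 against negative and 1066 and 818 against positive ESC. No member gained or lost a call under this block. The numbers mark no known pair, and correlations of same-numbered deviations ran from -0.13 to 0.07. Pairs numbered in another order need not give positive values there. With the 2 numbers of unsorted ESC crossed, added after seeing the data, the block gave 1243 and 894 against positive ESC.

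Leaving out each array in turn moved the following results by over 1.5 times, across 0 or across the threshold, from the lowest to the highest value; where 1 array is left in an arm, its spread comes from the other groups. The ESC sort ran from -0.52 to 0.44 for Eras, from -0.10 to 0.30 for L1td1 and from 0.33 to 0.98 for Tcl1, with 1 to 2 higher and 0 to 4 lower probe sets. The day 7 sort ran from 0.95 to 1.44 for L1td1 and from -0.58 to -0.17 for Tcl1, with 837 to 2988 higher and 361 to 3153 lower. Between the negative fractions Fbxo15 ran from -1.17 to -0.78, Tcl1 from 0.41 to 1.05 and Eras from -0.90 to -0.44, with 2492 to 4335 and 2769 to 3809. Between the positive fractions Eras ran from -0.46 to 0.49, Fbxo15 from -0.31 to 0.11 and Tcl1 from -0.59 to -0.076, with 609 to 2780 and 574 to 2379. The interaction of Eras ran from 0.27 to 1.22, with 2 to 279 and 2 to 119. Unsorted against negative ESC ran from -1.40 to 0.60 for Eras, from -0.90 to 0.0091 for L1td1, from 0.11 to 0.45 for Fbxo15 and from 0.11 to 0.76 for Tcl1, with 28 to 281 and 16 to 243, and against positive ESC from -1.36 to 0.64 for Eras, from -0.47 to 0.04 for Tcl1 and from -0.999 to -0.091 for L1td1, with 29 to 677 and 19 to 490. The lowest of these counts came without positive ESC array 2 in the interaction and the positive fractions, without unsorted array 1 in both unsorted comparisons and without negative day 7 array 1 in the day 7 sort and the negative fractions.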
